A study of Mus musculus with 9 samples.

Results

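The 10 genes described here encode the MHC class II presentation pathway: H2-Aa, H2-Ab1 and H2-Eb1 (chains of the display molecules), Cd74 (the invariant chain), H2-DMa, H2-DMb1, H2-DMb2, H2-Oa and H2-Ob (the peptide editors) and Ciita (the transcriptional co-activator). They were listed by name as the pathway's genes, with earlier results of these data known, and are 10 of 20418 gene symbols in the tables. For each symbol the RefSeq transcript with the highest mean read count was used, and all 10 passed the filter on low counts. RNA sequencing was read in CD8+ T cells taken from spleen, the mice being female C57BL/6 aged 6 weeks. One library was untreated and 8 came from cells given a T cell growth factor, either interleukin-2 (IL-2) or the related interleukin-15 (IL-15). The doses were 1 nM and 500 nM and the times 4 h and 24 h, and a condition is named here by dose and time, as in 500 nM 24 h. Each library pooled RNA of 3 samples treated alike and each condition had 1 library, so the tests take their spread from the factorial layout. The untreated library has its own term and adds nothing to that spread. A p-value here therefore covers the spread among the 8 treated libraries alone, and comparisons with the untreated library assume that it varies as they do.

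MHC class II molecules are paired alpha and beta chains that carry peptides from the endosome to the cell surface, where CD4+ T cells read them. The invariant chain fills the groove until it is cut away, H2-DM then swaps its last fragment for peptide, and H2-O, made mostly in B cells, holds H2-DM back. CIITA binds no DNA itself but docks on RFX and NF-Y at the promoters of these genes and switches them on. In the mouse the pathway is a hallmark of B cells, dendritic cells and macrophages, and T cells make little of it. Bulk libraries hold RNA of every cell in the preparation, so fewer cells of a type and less RNA per cell cannot be told apart.

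The label of the cells was checked against markers. Cd8a, the alpha chain of CD8, ranged from 393 to 985 CPM (counts scaled to a common library total, adjusted by the trimmed mean of M-values) and Cd4 from 0.227 to 5.62 CPM. Total counts per library, summed over the transcript used for each symbol, ran from 27158143 to 48799962. Markers of other spleen cells were present in every library and moved with dose and time. The sum of 12 B cell markers was 832 CPM untreated and 263 to 857 CPM in treated libraries. The sum of 13 macrophage and monocyte markers was 2311 CPM untreated and 36.2 to 1298 CPM treated. The sum of 8 dendritic cell markers was 126 CPM untreated and 17.6 to 51.2 CPM treated.

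The shared promoter module of the pathway is shown because it is the point at which CIITA acts on these genes. RefSeq (GRCm38.p6) gave an upstream window of 250 bases for 7 of the 10 genes. The pair searched was GNAAC, as in the X box read by RFX, followed by TGATTGG, as in the Y box read by NF-Y, with 20 to 30 bases between them, on either strand. These letters and the spacing were chosen after the windows of these genes had been seen, so the counts describe the windows and support nothing. Capitals mark the motifs, and each stretch is written along its gene's own strand, on chromosome 17.
H2-Aa (chr17:34287865-34287909, minus strand): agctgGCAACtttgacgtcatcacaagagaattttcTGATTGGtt
H2-Eb1 (chr17:34305771-34305814, plus strand): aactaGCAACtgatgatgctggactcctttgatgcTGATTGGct
H2-DMb1 (chr17:34153092-34153136, plus strand): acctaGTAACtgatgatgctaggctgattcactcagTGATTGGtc
H2-DMb2 (chr17:34145121-34145165, plus strand): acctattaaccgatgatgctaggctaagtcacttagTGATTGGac
H2-Oa (chr17:34092298-34092342, plus strand): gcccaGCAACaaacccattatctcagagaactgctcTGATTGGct
H2-Ob (chr17:34238813-34238854, plus strand): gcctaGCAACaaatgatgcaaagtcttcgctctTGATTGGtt
The pair was found in 5 of the 7 genes (H2-Aa, H2-Eb1, H2-DMb1, H2-Oa and H2-Ob), that is in 5 of their 8 windows, with gaps of 23 to 26 bases. TGATTGG was in 6 of the 7 genes and GNAAC in 7. Over all 32851 windows of this length the shares were 0.271% for the pair, 7.23% for TGATTGG and 79.6% for GNAAC. H2-DMb2 carried TGATTGG without GNAAC at that distance before it, and neither of the 2 windows of H2-DMa held TGATTGG. A match describes letters in a window and not a bound site.

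Per length of transcript, Cd74 was the most abundant of the 10 genes in the untreated library, with 538 RPKM (reads scaled by transcript length and by the library's total). H2-Ab1 followed with 438 RPKM, H2-Aa with 208 RPKM and H2-Eb1 with 126 RPKM. The editors were lower, from 59.5 RPKM for H2-DMa and 38.9 RPKM for H2-Oa through 35.4 RPKM for H2-Ob and 31.7 RPKM for H2-DMb2 to 23.2 RPKM for H2-DMb1. Ciita was the lowest at 5.37 RPKM. With a single untreated library, the order of neighbours such as H2-Oa, H2-Ob and H2-DMb2 has no replicate spread to set it against. H2-Ea, the alpha partner of H2-Eb1, is a pseudogene in RefSeq and had 0 counts in every library, which allows up to 0.0594 to 0.113 CPM (3 counts, counting error only). H2-Eb2, a weakly transcribed neighbour of H2-Eb1, lay between 1.31 and 7.67 CPM.

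**Figure D1:**
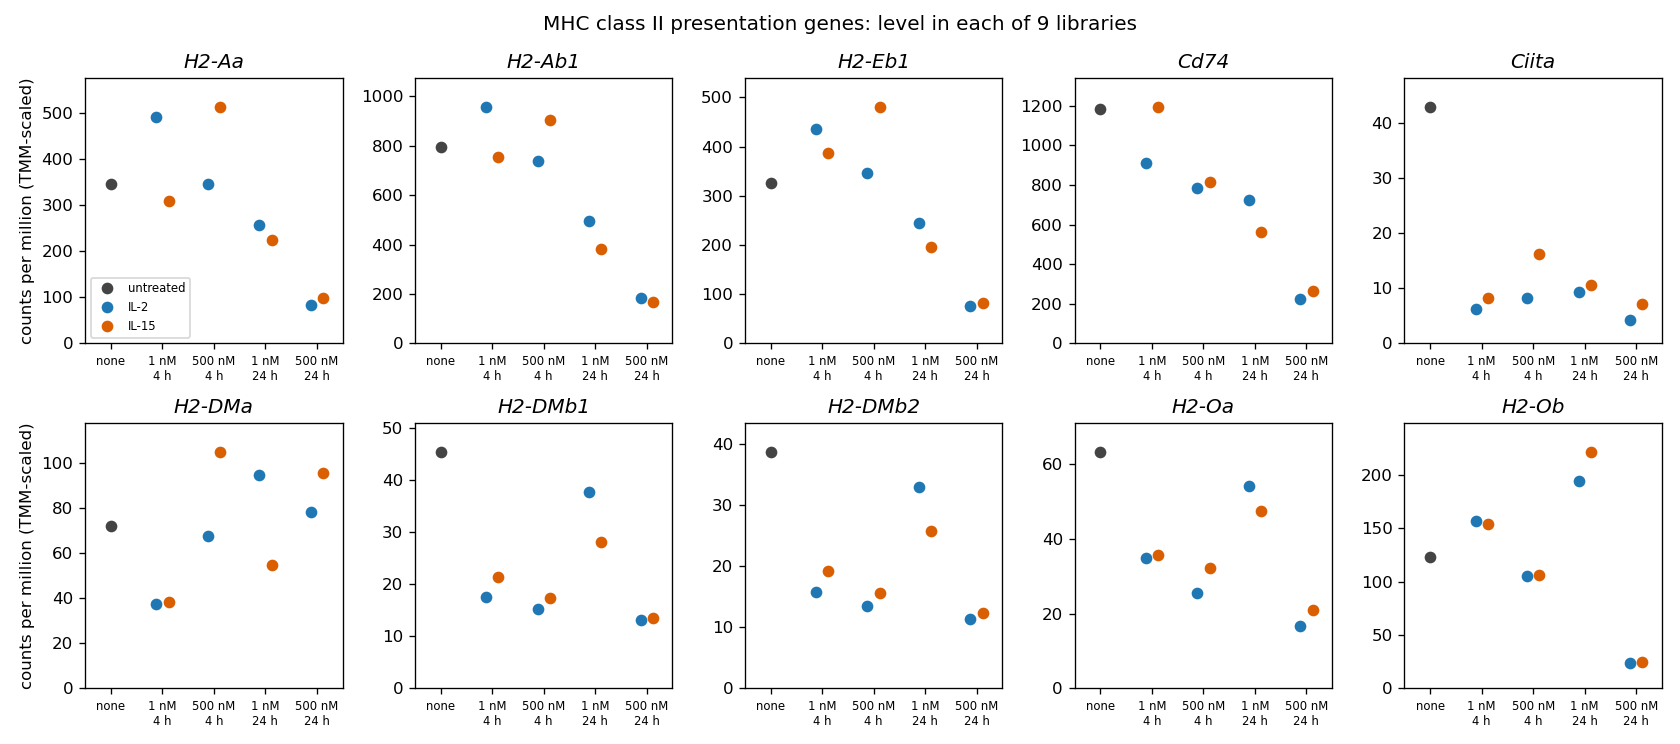
Level of each of the 10 genes in CPM (vertical axis, linear, from 0) in each of the 9 libraries, ordered by dose and time on the horizontal axis; each point is 1 library (grey untreated, blue IL-2, orange IL-15). The display chains, Cd74 and H2-Ob are lowest in both libraries at 500 nM 24 h (H2-Ab1 at 185 and 166 CPM), Ciita is highest untreated (42.9 CPM), and H2-DMa has no low point at 500 nM 24 h.

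The display chains shared 1 profile. H2-Aa, the alpha chain of I-A, was at 345 CPM untreated. With IL-2 it was at 492 CPM (1 nM, 4 h), 258 CPM (1 nM, 24 h), 347 CPM (500 nM, 4 h) and 82.4 CPM (500 nM, 24 h), and with IL-15 at 309.7, 224, 514 and 98.4 CPM in the same order. The libraries at 500 nM 24 h were the lowest with either cytokine, those at 1 nM 24 h came next, and the 4 h libraries lay on both sides of the untreated one. H2-Ab1, the beta chain of I-A, was at 797 CPM untreated. It was at 958, 495, 738 and 185 CPM with IL-2 and at 755, 380.4, 904 and 166 CPM with IL-15, again in the order 1 nM 4 h, 1 nM 24 h, 500 nM 4 h and 500 nM 24 h. Values of the other genes follow the same order. Each 24 h library of H2-Ab1 lay below each 4 h library, and the 2 doses overlapped at 4 h and were apart at 24 h. H2-Eb1, the beta chain of I-E, was at 326 CPM untreated, at 435, 244, 347 and 77.01 CPM with IL-2 and at 388, 196, 481 and 82.3 CPM with IL-15. Its groups separated in the same way as those of H2-Ab1.

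Cd74, which chaperones the class II chains to the endosome, was at 1181 CPM untreated. It was at 912, 726, 783 and 226 CPM with IL-2 and at 1194, 559.9, 813 and 266 CPM with IL-15. At each time the libraries at 500 nM were below those at 1 nM, and the gap was widest at 24 h. H2-Ob, the beta chain of H2-O, had its highest levels in the 1 nM libraries at 24 h. It was at 123 CPM untreated, at 156, 194, 106 and 23.7 CPM with IL-2 and at 154, 222, 106 and 25.1 CPM with IL-15. The 2 cytokines gave nearly the same values at each dose and time, and the 2 libraries at 500 nM 24 h stood far below the other 7.

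Raising the dose from 1 nM to 500 nM at 24 h lowered 8 of the 10 genes (edgeR's quasi-likelihood test, Benjamini-Hochberg adjusted p under 0.05), where 15.6% of 13479 tested genes fell. The median log2 difference of the 10 was -1.36, beside -0.04 over all tested genes. The display chains fell by similar amounts: H2-Aa by 1.41 ± 0.26 on the log2 scale (SE, adjusted p = 0.00142), H2-Ab1 by 1.31 ± 0.20 (adjusted p = 0.00047) and H2-Eb1 by 1.47 ± 0.21 (adjusted p = 0.000309). Cd74 fell by 1.39 ± 0.21 (adjusted p = 0.000365), a level 2.63-fold lower. H2-Ob fell furthest, by 3.09 ± 0.19 (adjusted p = 2.06e-06), to a level 8.501-fold lower, and its partner H2-Oa fell by 1.45 ± 0.23 (adjusted p = 0.000557). H2-DMb1 and H2-DMb2, the beta chains of H2-DM, fell by 1.31 ± 0.26 (adjusted p = 0.00245) and 1.32 ± 0.26 (adjusted p = 0.00251). Each of the 8 calls held in 9 of 9 fits that left out 1 library.

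The genes that did not pass at 24 h were Ciita and H2-DMa. Ciita differed by -0.86 ± 0.32 (adjusted p = 0.0571). H2-DMa, the alpha chain of H2-DM, differed by 0.21 ± 0.28 (adjusted p = 0.619), and the sign turned to -0.26 without the IL-15 library at 1 nM 24 h. Without the IL-2 library at 1 nM 24 h, H2-DMa was higher at 500 nM by 0.82 (adjusted p = 0.039).

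At 4 h the same change of dose moved 1 of the 10 genes upward, where 5.42% of tested genes rose. H2-DMa rose by 1.18 ± 0.28 (adjusted p = 0.0188), from 37.5 and 38.4 CPM at 1 nM to 67.6 and 105 CPM at 500 nM (IL-2 and IL-15 in each case). The call was lost without either 1 nM library at 4 h or without the IL-15 library at 500 nM 4 h, with values from 0.75 to 1.54 over the leave-outs. H2-Ob differed by -0.55 ± 0.17 (adjusted p = 0.0652). The 2 doses overlapped at 4 h for the 3 display chains. For Cd74, H2-Oa, H2-DMb1 and H2-DMb2 both libraries at 500 nM were below both at 1 nM, and for Ciita above, without passing the test.

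**Figure D2:**
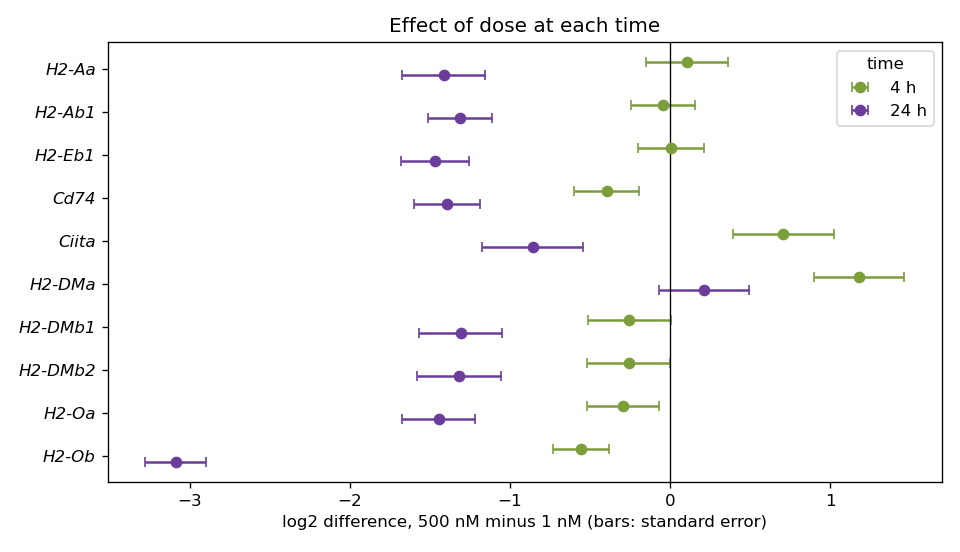
Fitted log2 difference between 500 nM and 1 nM (horizontal axis) for each of the 10 genes (vertical axis) at 4 h (green) and at 24 h (purple), over both cytokines; points are estimates and bars the standard error. At 24 h 8 of the 10 genes passed the test below 0, from -1.31 to -3.09, and at 4 h only H2-DMa passed, at 1.18.

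The difference between the 2 dose effects was tested as a dose by time interaction. It passed for 6 of the 10 genes, all with a more negative dose effect at 24 h, where 4.76% of tested genes did so. H2-Ob had the largest value, -2.53 ± 0.25 (adjusted p = 0.000314). H2-Aa stood at -1.52 ± 0.36 (adjusted p = 0.0237), H2-Eb1 at -1.47 ± 0.29 (adjusted p = 0.0115), H2-Ab1 at -1.27 ± 0.28 (adjusted p = 0.0189) and H2-Oa at -1.15 ± 0.32 (adjusted p = 0.0434). Ciita was at -1.56 ± 0.44 (adjusted p = 0.048), and Cd74, at -0.998 ± 0.29 (adjusted p = 0.0505), did not pass. H2-Ob passed in all 9 fits that left out 1 library. The count fell to 1 without the library at 500 nM 24 h of either cytokine or without IL-15 at 1 nM 4 h, to 2 without IL-2 at 1 nM 24 h or IL-15 at 500 nM 4 h, and to 4 without IL-2 at 1 nM 4 h.

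Over both times, the dose effect passed for 2 of the 10 genes, where 8.47% of tested genes fell: Cd74 fell by 0.89 ± 0.24 (adjusted p = 0.0357) and H2-Ob by 1.82 ± 0.48 (adjusted p = 0.0352). Both calls were lost without any 1 of the 4 libraries at 24 h, and that of Cd74 also without IL-15 at 1 nM 4 h. The count was 0 without either library at 500 nM 24 h or IL-15 at 1 nM 24 h, 1 (H2-DMa, higher) without IL-2 at 1 nM 24 h and 5 without IL-15 at 500 nM 4 h. With a dose by time term in the model, 9 of the 10 genes passed, 8 of them lower.

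Time was read within each dose. At 500 nM, 6 of the 10 genes fell between 4 h and 24 h, where 12.9% of tested genes fell. H2-Eb1 fell by 2.38 ± 0.22 (adjusted p = 2.67e-05), H2-Aa by 2.25 ± 0.26 (adjusted p = 0.000117) and H2-Ab1 by 2.24 ± 0.21 (adjusted p = 2.75e-05), so that their levels were 4.71-fold to 5.19-fold lower. H2-Ob fell by 2.12 ± 0.18 (adjusted p = 2.39e-05) and Cd74 by 1.70 ± 0.21 (adjusted p = 0.000149). Ciita fell by 1.09 ± 0.32 (adjusted p = 0.0236), a call lost without IL-2 at 500 nM 24 h or without either IL-15 library at 500 nM, with 5 genes then passing. H2-DMa, H2-DMb1, H2-DMb2 and H2-Oa did not pass.

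At 1 nM, 2 of the 10 genes fell between 4 h and 24 h, where 1.37% of tested genes fell. H2-Ab1 fell by 0.97 ± 0.20 (adjusted p = 0.0259) and H2-Eb1 by 0.90 ± 0.21 (adjusted p = 0.0401). Both calls were lost without any 1 of the 4 libraries at 1 nM or either library at 500 nM 24 h, which left 0 genes, or H2-DMa alone, which then rose, where IL-15 at 1 nM 24 h was left out. Over both doses, 4 of the 10 genes fell, where 2.62% of tested genes did: H2-Eb1 by 1.64 ± 0.31 (adjusted p = 0.024), H2-Ab1 by 1.60 ± 0.28 (adjusted p = 0.0177), H2-Aa by 1.49 ± 0.34 (adjusted p = 0.0412) and Cd74 by 1.20 ± 0.24 (adjusted p = 0.0291). That count was 0 without IL-2 at 500 nM 4 h or without either library at 500 nM 24 h, 1 without IL-2 at 1 nM 4 h and 2 without IL-15 at 500 nM 4 h.

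Ciita had another profile than the 3 display chains. It was at 42.9 CPM untreated, at 6.22, 9.26, 8.21 and 4.25 CPM with IL-2 and at 8.19, 10.5, 16.2 and 7.06 CPM with IL-15. Every treated library lay far below the untreated one, with IL-15 at 500 nM 4 h the highest of the 8. At 4 h Ciita was lower than untreated at both doses, while none of the 3 display chains passed against untreated by edgeR or DESeq2. Like Ciita, H2-DMb1 and H2-DMb2 passed as lower than untreated at 4 h at both doses, and H2-Oa at 500 nM 4 h. Against the untreated library, Ciita was 6.00-fold lower at 1 nM 4 h (log2 difference -2.59 ± 0.37, adjusted p = 0.00223) and 3.68-fold lower at 500 nM 4 h (-1.88 ± 0.36, adjusted p = 0.00401). At 24 h it was 4.31-fold lower at 1 nM (-2.11 ± 0.36, adjusted p = 0.0134) and 7.82-fold lower at 500 nM (-2.97 ± 0.37, adjusted p = 0.00023). The call at 1 nM 24 h was lost without the IL-15 library at that dose and time (adjusted p = 0.0525). The tables hold 1 transcript of Ciita, so its alternative start sites were not told apart.

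Each dose and time was set against the untreated library. At 500 nM 24 h, 9 of the 10 genes were lower, where 12.3% of tested genes were. H2-Ob fell by 2.33 ± 0.21 (adjusted p = 2.01e-05), Cd74 by 2.27 ± 0.24 (adjusted p = 7.42e-05), H2-Ab1 by 2.18 ± 0.23 (adjusted p = 8.08e-05), H2-Eb1 by 2.03 ± 0.24 (adjusted p = 0.00019) and H2-Aa by 1.93 ± 0.30 (adjusted p = 0.00081). H2-DMb1, H2-DMb2 and H2-Oa fell by 1.71 to 1.77, and H2-DMa did not pass. At 500 nM 4 h, 4 of the 10 were lower, where 8.47% of tested genes were, namely Ciita, H2-DMb1 (by 1.48 ± 0.30, adjusted p = 0.00562), H2-DMb2 (by 1.41 ± 0.31, adjusted p = 0.00805) and H2-Oa (by 1.14 ± 0.27, adjusted p = 0.012). H2-Oa was lost there without the IL-2 library at 500 nM 4 h.

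At 1 nM 4 h, 3 of the 10 were lower than untreated, where 3.55% of tested genes were: Ciita, H2-DMb1 (by 1.23 ± 0.30, adjusted p = 0.0348) and H2-DMb2 (by 1.15 ± 0.31, adjusted p = 0.046). Both H2-DMb calls were lost without either 1 nM library at 4 h or either 500 nM library at 24 h, which left 1 gene. At 1 nM 24 h, Ciita was the 1 gene of the 10 to pass, where 0.786% of tested genes were lower. DESeq2 also called H2-Ab1 (-0.92, adjusted p = 0.00802) and Cd74 (-0.92, adjusted p = 0.00943) lower and H2-Ob (0.71, adjusted p = 0.0344) higher there. When the doses were averaged, 0 of the 10 genes passed at 4 h, where 2.43% of tested genes passed in either direction, and 0 at 24 h, where 0.341% did. At an unadjusted p under 0.05 these counts were 4 and 8, DESeq2 gave 2 and 3, and a dose by time term in the model gave 4 and 9. All of these comparisons share 1 untreated library, and the labels do not say whether its cells were cultured, so time in culture and cytokine cannot be told apart in them.

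**Figure D3:**
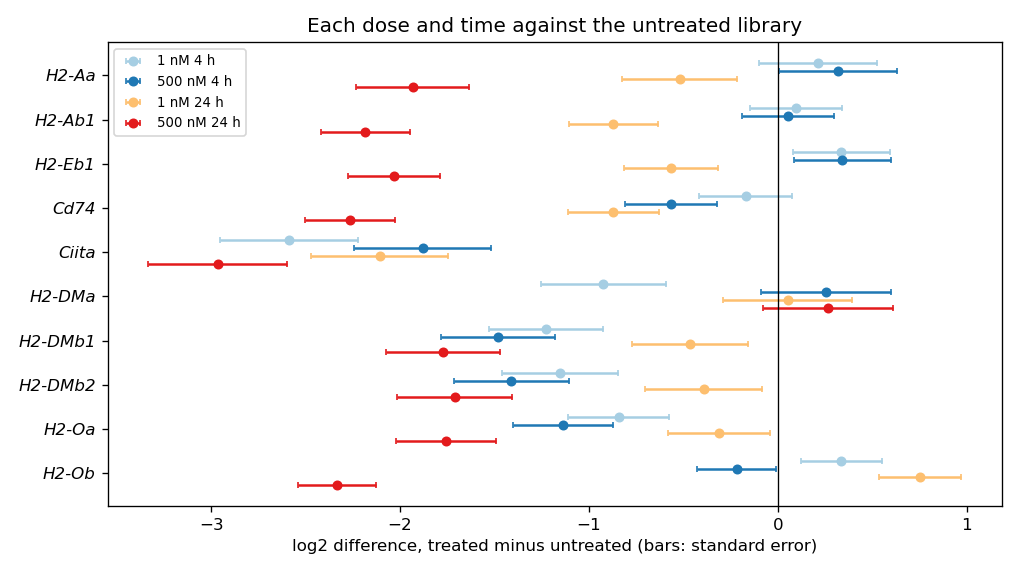
Fitted log2 difference from the untreated library (horizontal axis) for each of the 10 genes (vertical axis) at 1 nM 4 h, 500 nM 4 h, 1 nM 24 h and 500 nM 24 h (colours), over both cytokines; points are estimates and bars the standard error. Ciita is lower in all 4 conditions (-1.88 to -2.97), while the display chains, Cd74 and H2-Ob are called lower by edgeR at 500 nM 24 h and not in the other 3 conditions.

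The chains of the peptide editors did not move together. H2-DMa was at 72.1 CPM untreated, at 37.5, 94.4, 67.6 and 78.2 CPM with IL-2 and at 38.4, 54.5, 105 and 95.2 CPM with IL-15. Its lowest libraries were the pair at 1 nM 4 h, and the libraries at 500 nM 24 h were above the untreated one. H2-DMb1 was at 45.4 CPM untreated, at 17.5, 37.6, 15.2 and 13.2 CPM with IL-2 and at 21.3, 28.1, 17.3 and 13.4 CPM with IL-15. H2-DMb2 had the same order of libraries, from 38.7 CPM untreated to 11.4 CPM with IL-2 at 500 nM 24 h. Both H2-DMb genes were highest untreated, next highest at 1 nM 24 h, and low in the other 6 libraries.

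Per length, H2-DMa RNA was 1.08 times the sum of H2-DMb1 and H2-DMb2 in the untreated library. At 1 nM this ratio was 1.42 (4 h) and 1.69 (24 h) with IL-2 and 1.19 and 1.27 with IL-15. At 500 nM it was 2.96 and 4.03 with IL-2 and 4.00 and 4.64 with IL-15. All 4 libraries at 500 nM lay above all 4 at 1 nM, with no overlap and with the untreated library lowest. H2-DMb1 and H2-DMb2 are near copies: their reference transcripts were 95.3% identical over 1093 aligned bases and shared about 27.2% of 50-base words. How reads matching both were counted is not given in the sources used here, so the division between the 2 genes is uncertain, and their ratio stayed within 1.36 to 1.47.

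H2-Oa, the alpha chain of H2-O, was at 63.3 CPM untreated, at 35.0, 54.2, 25.4 and 16.7 CPM with IL-2 and at 35.6, 47.4, 32.3 and 20.9 CPM with IL-15. Like the H2-DMb genes it was highest untreated and next highest at 1 nM 24 h, whereas H2-Ob was above its untreated level at 1 nM. The ratio of H2-Ob to H2-Oa per length was 0.909 untreated, 1.53 to 2.19 in the 6 treated libraries other than 500 nM 24 h, and 0.664 (IL-2) and 0.561 (IL-15) in those. The sum of the H2-DM genes was 1.54 times the sum of the H2-O genes untreated, 0.795 to 2.15 in the same 6 libraries, and 4.71 (IL-2) and 4.76 (IL-15) at 500 nM 24 h. In the last pair of libraries H2-DMa was at 70.2 RPKM (IL-2) and 87.1 RPKM (IL-15), beside 59.5 RPKM untreated. H2-Oa was at 11.2 and 14.2 RPKM there, beside 38.9 RPKM untreated. H2-Ob was at 7.42 and 7.99 RPKM, beside 35.4 RPKM untreated. The high ratio thus came with lower H2-O RNA as well as with H2-DMa above its untreated level. H2-DMb1, H2-DMb2, H2-Oa and H2-Ob each lay between 7.32 and 14.2 RPKM there. A sum over alpha and beta chains does not measure the paired editor.

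Cd74 has a short and a long transcript in the tables, the long one with an extra exon of 192 bases that encodes a thyroglobulin-type domain. Read density in the extra bases, as a percent of the density over the short transcript, was 23.5% untreated. It was 28.9%, 18.4%, 23.7% and 23.7% with IL-2 and 25.1%, 18.8%, 22.3% and 26.6% with IL-15. The lowest values were those of the libraries at 1 nM 24 h, with 95% Poisson intervals of 17.3% to 19.5% (IL-2) and 17.4% to 20.3% (IL-15), below the intervals of the other 7 libraries (lowest bound 20.9%). The intervals cover counting error only, because amplified reads carried no molecular identifier and may repeat a molecule.

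IL-15 was set against IL-2 over all doses and times, the question in the title of the series. No gene of the 10 passed (edgeR's quasi-likelihood test), where 0% of tested genes did, and 0 of the 10 had an unadjusted p under 0.05. DESeq2 called 0 of the 10. The 10 log2 differences lay between -0.12 (H2-Ab1) and 0.58 (Ciita). Within the matched conditions Ciita was higher with IL-15 in 4 of 4, by 0.40 (1 nM 4 h), 0.18 (1 nM 24 h), 0.98 (500 nM 4 h) and 0.73 (500 nM 24 h). The 95% interval of Ciita ran from -0.20 to 1.35, and those of the other genes reached from -0.90 to 1.06 at their widest (H2-Ob), so differences of about that size could not be seen. Cytokine by dose and cytokine by time interactions each passed for 0 of the 10 genes, where 0% of tested genes passed, with 0 at an unadjusted p under 0.05 and 0 by DESeq2.

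Most B cell and macrophage markers fell with dose at 24 h, as most of the class II genes did. Over time at 1 nM the B cell sum and the display chains parted. From 4 h to 24 h the B cell sum rose from 647 to 850.3 CPM (IL-2) and from 618 to 857 CPM (IL-15). The display chains and Cd74 were lower at 24 h than at 4 h in these libraries. The other class II genes were higher at 24 h, as the B cell sum was. Their log2 differences ran from 0.42 (H2-Ob) to 0.98 (H2-DMa), and none passed the test. At 24 h, 10 of 12 B cell markers were lower at 500 nM than at 1 nM, as were 11 of 13 macrophage and monocyte markers and 3 of 8 dendritic cell markers, where 15.6% of tested genes fell. Cd79a, a signalling chain of the B cell receptor, was at 298 and 261 CPM at 1 nM 24 h and at 81.0 and 91.0 CPM at 500 nM 24 h, a fall of 1.70 ± 0.18 (adjusted p = 5.34e-05). The sum of H2-Aa, H2-Ab1, H2-Eb1 and Cd74 was 3.19 times the B cell marker sum in the untreated library. This ratio was 4.32 and 4.28 at 1 nM 4 h, 5.36 and 6.17 at 500 nM 4 h, 2.03 and 1.59 at 1 nM 24 h and 2.17 and 1.95 at 500 nM 24 h (IL-2 and IL-15 in each case). All 4 libraries at 24 h lay below the untreated library and all 4 at 4 h above it, and at 24 h the 2 doses overlapped. That overlap depends on the markers summed. Against the B cell markers Cd79a and Cd79b alone, the ratio at 24 h was 3.44 and 2.94 at 1 nM and 4.11 and 3.82 at 500 nM.

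The macrophage and dendritic sums had other profiles. The macrophage sum was 340.2 and 328 CPM at 1 nM 4 h, 241 and 172 CPM at 500 nM 4 h, 1004 and 1298 CPM at 1 nM 24 h and 37.5 and 36.2 CPM at 500 nM 24 h. At 4 h it was below its level at 1 nM 24 h, while the display chains were above theirs. The dendritic sum was 51.2 and 44.5 CPM at 1 nM 4 h, 31.1 and 39.2 CPM at 500 nM 4 h, 33.7 and 34.6 CPM at 1 nM 24 h and 22.6 and 17.6 CPM at 500 nM 24 h. Its low point depends on the scale. In RPKM the dendritic sum at 500 nM 24 h was 15.1 with IL-2, the highest treated value, and 8.58 with IL-15. The dendritic markers did not move together. Over both doses Batf3 alone of them was higher at 24 h than at 4 h, by 1.82 ± 0.45, without passing edgeR's test (adjusted p = 0.0501). Of the defining markers, Pax5 had 0 counts in 6 libraries, the untreated one included, Cd209a in 6 and Itgam in 5. The part of these cells in the class II results was not tested.

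**Figure D4:**
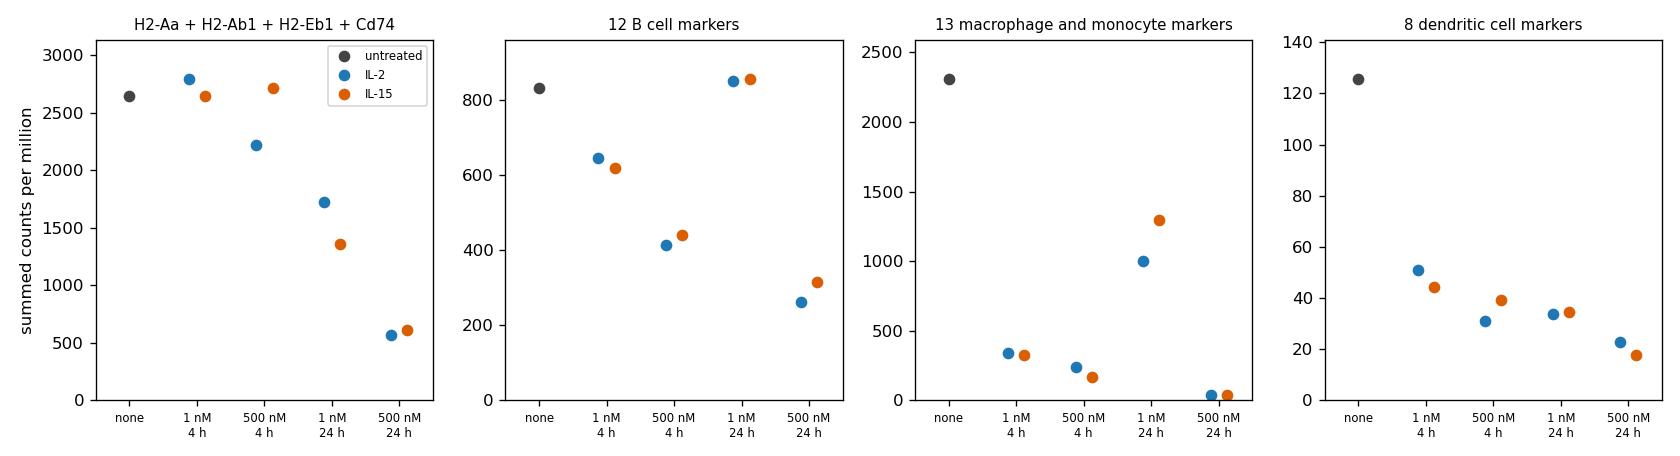
Summed level in CPM (vertical axes, linear, from 0) of H2-Aa, H2-Ab1, H2-Eb1 and Cd74 and of the B cell, macrophage and monocyte, and dendritic cell markers in each library, by dose and time; each point is 1 library (grey untreated, blue IL-2, orange IL-15). All 4 sums are lowest at 500 nM 24 h, whereas at 1 nM 24 h the B cell sum (850.3 and 857 CPM) is near its untreated level and the class II sum (1723 and 1360 CPM) is below it.

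Among 15 genes of class II transcription, the dose effect over both times passed for 3 upward and 2 downward, where 7.63% of tested genes rose and 8.47% fell. Irf8, a factor of B cell, dendritic and activated T cell transcription, rose by 2.04 ± 0.20 (adjusted p = 0.000883), and Sfpi1, which encodes PU.1 of B and myeloid cells, fell by 1.87 ± 0.36 (adjusted p = 0.0108). Irf4 rose with dose by 1.32 ± 0.22 (adjusted p = 0.00572) and fell from 4 h to 24 h by 1.73 ± 0.22 (adjusted p = 0.00724). Rfx5, the DNA-binding subunit of RFX, fell with time by 1.47 ± 0.24 (adjusted p = 0.0148). With Irf4 it made up the 2 of 15 that fell with time, where 2.62% of tested genes did.

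Of 12 tested genes of antigen processing and class II turnover, 6 fell with dose, where 8.47% of tested genes did, and 0 rose. Lgmn, the endosomal protease legumain, fell by 1.72 ± 0.39 (adjusted p = 0.0193) and Ctsb, cathepsin B, by 1.38 ± 0.30 (adjusted p = 0.0172). With time, 2 of the 12 rose and 1 fell, where 2.69% of tested genes rose and 2.62% fell. Ctsd, cathepsin D, rose by 1.92 ± 0.18 (adjusted p = 0.00195) though it fell with dose, and Cd83, which protects class II from degradation, fell by 2.54 ± 0.22 (adjusted p = 0.00161). Of 4 co-stimulatory genes, Cd40 and Cd86 rose with dose, by 1.45 ± 0.31 (adjusted p = 0.0165) and 1.28 ± 0.31 (adjusted p = 0.0253), and fell with time, by 1.42 ± 0.32 (adjusted p = 0.0399) and 1.36 ± 0.31 (adjusted p = 0.0412).

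The class II genes other than Ciita and Cd74 lie on chromosome 17 among genes with other duties, in the order shown by the plot of the region. Of 9 such neighbours, 5 rose with dose over both times, where 7.63% of tested genes did, and 0 fell. They were Daxx, a histone chaperone (by 1.41 ± 0.39, adjusted p = 0.0407), Psmb8 and Psmb9, subunits of the immunoproteasome (by 1.33 ± 0.22, adjusted p = 0.00599, and 1.01 ± 0.28, adjusted p = 0.0386), Tap2 (by 0.91 ± 0.24, adjusted p = 0.0336) and Tap1, the other subunit of the class I peptide transporter. At 24 h, Psmb8 alone of the 9 rose, where 15.6% of tested genes did, by 1.08 ± 0.24 (adjusted p = 0.00507). Psmb9, Tap1, Psmb8 and Tap2 sit between H2-DMb1 and H2-Ob, which both fell at 24 h. H2-Eb2, next to H2-Eb1, fell at 24 h by 1.95 ± 0.46 (adjusted p = 0.00679).

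**Figure D5:**
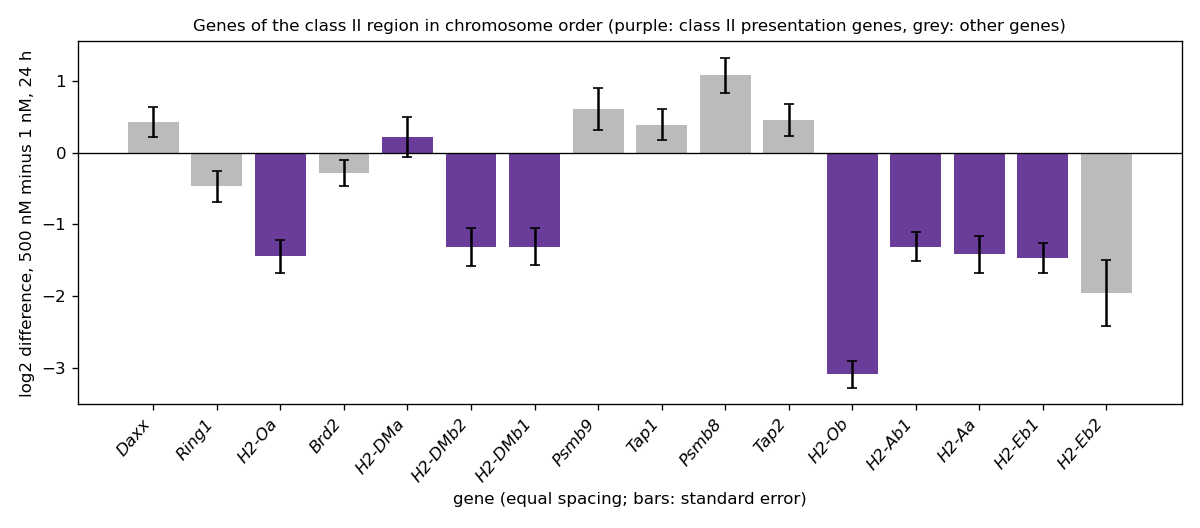
Fitted log2 difference between 500 nM and 1 nM at 24 h (vertical axis) for genes of the class II region of chromosome 17 with a mean above 2 CPM, in RefSeq order and equally spaced (horizontal axis); purple bars are class II presentation genes, grey bars other genes, and error bars the standard error. The class II bars lie below 0 except H2-DMa (0.21), while Psmb9, Tap1, Psmb8 and Tap2 between H2-DMb1 and H2-Ob lie above 0, of which Psmb8 (1.08) passed the test.

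The genes most like the display chains and Cd74 were sought by Pearson's r over the 9 libraries, with the mean centred log2 CPM of H2-Aa, H2-Ab1, H2-Eb1 and Cd74 as the profile. Among 7818 genes with a mean of at least 10 CPM, the highest were Csf2rb2 (r = 0.982), a receptor chain for interleukin-3, Zfp36l1 (r = 0.977), an RNA decay factor, Cxcr5 (r = 0.974), the chemokine receptor of B cell follicles, Irf5 (r = 0.972) and Rpl23 (r = 0.97). Within the 10, H2-Ob had r = 0.797, H2-Oa 0.615, Ciita 0.507, H2-DMb2 0.415, H2-DMb1 0.408 and H2-DMa -0.384. These values share libraries and depth and are a description. Cxcr5 was at 76.3 CPM untreated, at 82.8, 65.3, 86.7 and 24.96 CPM with IL-2 and at 89.6, 59.5, 121 and 22.3 CPM with IL-15, with its 2 lowest libraries at 500 nM 24 h.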

How the data were processed

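RNA-seq libraries of splenic CD8+ T cells were made from 3 pooled samples each. Per the submitters' processing notes, the authors used CASAVA 1.8, Bowtie 0.12.4 and mm8. How strand and multi-mapping reads were treated is not stated in those notes. The deposited tables hold raw read counts of 24373 RefSeq transcripts and, per the file headers and the values, RPKM that the authors made from those counts. Counts were tested, and RPKM served for levels between genes.

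The filterByExpr step (minimum count 10, total 15) kept 13479 genes. After TMM scaling, edgeR 4.0.16 (R 4.3.3, quasi-likelihood) fitted cytokine, dose, time and an untreated term over 9 libraries, with 4 residual degrees of freedom. Interactions and effects within a dose or time came from 1 added term, with 3. P-values were adjusted by Benjamini-Hochberg over all genes, with a threshold of 0.05. CPM are TMM-scaled. Depth, summed over the transcript used for each symbol, ran from 27158143 to 48799962 counts.

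The 10 genes, the lists and the tests were chosen with earlier results of these data known. Named genes were the 10, up to 4 of each list that passed for dose or time, and 5 genes of like profile. H2-Eb2, Tap1 and the values of Cd79a and Psmb8 at 24 h were named after their values were seen. Promoter windows come from RefSeq GRCm38.p6. Those of H2-Ab1, Cd74 and Ciita and the proteins were not analysed here. Alternatives were DESeq2 1.42.0, RLE scaling, no filter, the mean over transcripts, an added dose by time term and leaving out each library.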

Additional observations from a re-analysis of the deposited data

Results flagged for a closer look

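In 6 of the 10 genes the effect of dose differed between the 2 times, by a test of the difference itself (edgeR's quasi-likelihood test of the dose by time interaction), where 4.76% of tested genes had a more negative dose effect at 24 h. The dose effect at 24 h minus that at 4 h, on the log2 scale, was -2.53 for H2-Ob, -1.56 for Ciita, -1.52 for H2-Aa, -1.47 for H2-Eb1, -1.27 for H2-Ab1 and -1.15 for H2-Oa. The adjusted p-values were 0.000314, 0.048, 0.0237, 0.0115, 0.0189 and 0.0434 in that order. H2-Ob passed in 9 of 9 fits that left out 1 library, H2-Eb1 in 6, H2-Aa and H2-Ab1 in 4 each, H2-Oa in 2 and Ciita in 1. The B cell markers showed 3 of 12 and the macrophage and monocyte markers 11 of 13 with such a difference, beside the same 4.76%, and their part in the result was not tested.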

How the results depend on the processing

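No paired analysis was possible because no condition has a second numbered library, and the cytokine fit already matches IL-15 with IL-2 on dose and time. With DESeq2 the number of class II genes that passed was 5 for dose over both times, 2 for 4 h against untreated, 3 for 24 h against untreated, 2 for dose at 4 h, 4 for time at 1 nM and 4 for 1 nM and 24 h against untreated. With the dose by time term added it was 9 for dose, 4 for 4 h and 9 for 24 h against untreated. RLE scaling and no filter each gave 1 for 4 h against untreated. The cause of these changes was not tested. Leaving out 1 library gave 0 to 5 genes for dose, 0 to 4 for time, 1 to 7 for dose by time, 0 to 1 for dose at 4 h, 8 to 9 for dose at 24 h, 0 to 2 for time at 1 nM, 5 to 6 for time at 500 nM, 0 to 1 for 4 h and 0 for 24 h against untreated. Against untreated by condition it gave 1 to 4 (1 nM, 4 h), 0 to 1 (1 nM, 24 h), 3 to 4 (500 nM, 4 h) and 9 (500 nM, 24 h). H2-DMa at 24 h ranged from -0.26 to 0.82 for dose. The counts for IL-15 against IL-2 and for both cytokine interactions were 0 in every such fit. With 1 library per condition, an interaction left out of a model enters its spread.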
